A study of Rattus norvegicus with 3 samples.

Results

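Glycolysis splits glucose into pyruvate, and lactate dehydrogenase turns pyruvate into lactate, which leaves the cell through monocarboxylate transporters. The genes of this route, and of the step that feeds pyruvate into mitochondria, were followed in the retina of the neonatal rat as 34 genes taken by symbol. All 34 were found among the 18425 genes of the deposited table. The rule names them by their function and uses no measured value. Retinas came from Sprague-Dawley rats of wild-type genotype, injected into the vitreous at P1 with a volume of 1 µl and collected at P4. The injections were STZ (10 µg, prepared in citrate buffer), citrate buffer of pH 4.5, or saline. STZ is a glucosamine compound with a nitrosourea group that alkylates DNA, and citrate buffer was its vehicle. Each injection was represented by 1 library, and how many animals or eyes went into it is not given in the sources used here. The spread between animals is therefore unknown, no p-value was computed, and every difference compares libraries and not conditions. Where 3 values of a gene follow each other, they stand in the order buffer, saline, STZ.

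In most tissues pyruvate is burned in mitochondria, but the retina is known for aerobic glycolysis, in which much of it is turned into lactate although oxygen is present. Photoreceptors and dividing progenitor cells both use this mode, and the enzymes hexokinase 2, pyruvate kinase M and lactate dehydrogenase A are typical of it. Pyruvate dehydrogenase kinases push the balance the same way, because they switch off the complex that turns pyruvate into acetyl-CoA. Many genes of the route are known targets of the hypoxia-inducible factor HIF-1 and of Myc proteins.

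The libraries had similar depth, between 21977846 and 22031241 reads assigned to genes. Markers of retina were present in each, with none at 0 among 9 progenitor, 10 photoreceptor and 10 ganglion and amacrine cell genes. Other markers differed between libraries, and these differences have to be read beside each result. The summed FPKM (fragments scaled to transcript length and library size) of 10 pigment and ciliary epithelium genes was 104, 259 and 103, thus highest in the saline library. That of 9 lens genes was 12.2, 32.7 and 196, and that of 10 microglia genes 60.5, 79.5 and 201. Progenitor markers summed to 959, 953 and 672, and 6 astrocyte genes to 14.66, 16.35 and 7.59. In bulk RNA, fewer cells of a type and less RNA per cell cannot be told apart.

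Glycolysis made up a visible part of the retinal transcriptome. The 34 genes held 1.504% of all reads in buffer (95% interval 1.499 to 1.509), 1.432% in saline (1.427 to 1.437) and 1.435% in STZ (1.43 to 1.44). The intervals are exact Clopper-Pearson ones and cover counting error only. Reads can be copies of 1 molecule, which such an interval does not cover. The share was highest in buffer, and saline and STZ overlapped within counting error. Expressed per length, the members added up to 10038, 9597 and 9640.1 FPKM.

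The levels of single members spanned more than 3 orders of magnitude. Gapdh, which encodes the enzyme that oxidises glyceraldehyde 3-phosphate, had 2657, 2658 and 2679.6 FPKM and ranked 3, 3 and 2 among the genes of the table. Eno1, the main enolase, followed with 1477, 1470 and 1291 FPKM, Pkm with 1385, 1364 and 1299, and Ldha with 1124, 995 and 1072. These genes of the later steps of the pathway stood far above its hexokinase genes. Hk1 and Hk2, which encode the hexokinases that trap glucose in the cell, had at most 41.6 and 19.8 FPKM. Levels did not follow the order of the steps in every gene. The phosphofructokinase gene Pfkp, of an early step, had 279, 296 and 197 FPKM, and Bpgm, placed with the later steps, 46.6, 41.5 and 47.2. In each library 2 members lay below the median of all genes. They were Pgam2, the muscle form of phosphoglycerate mutase, with 3.91, 6.46 and 3.74 FPKM, and Pdk4, the pyruvate dehydrogenase kinase of fasting, with 0.3, 0.42 and 0.53 FPKM from 8, 11 and 14 reads. Glycolytic genes, Gapdh above all, have processed pseudogene copies in rodents, and reads with several genomic locations had been discarded by the authors. Absolute levels of such genes are therefore uncertain.

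**Figure D1:**
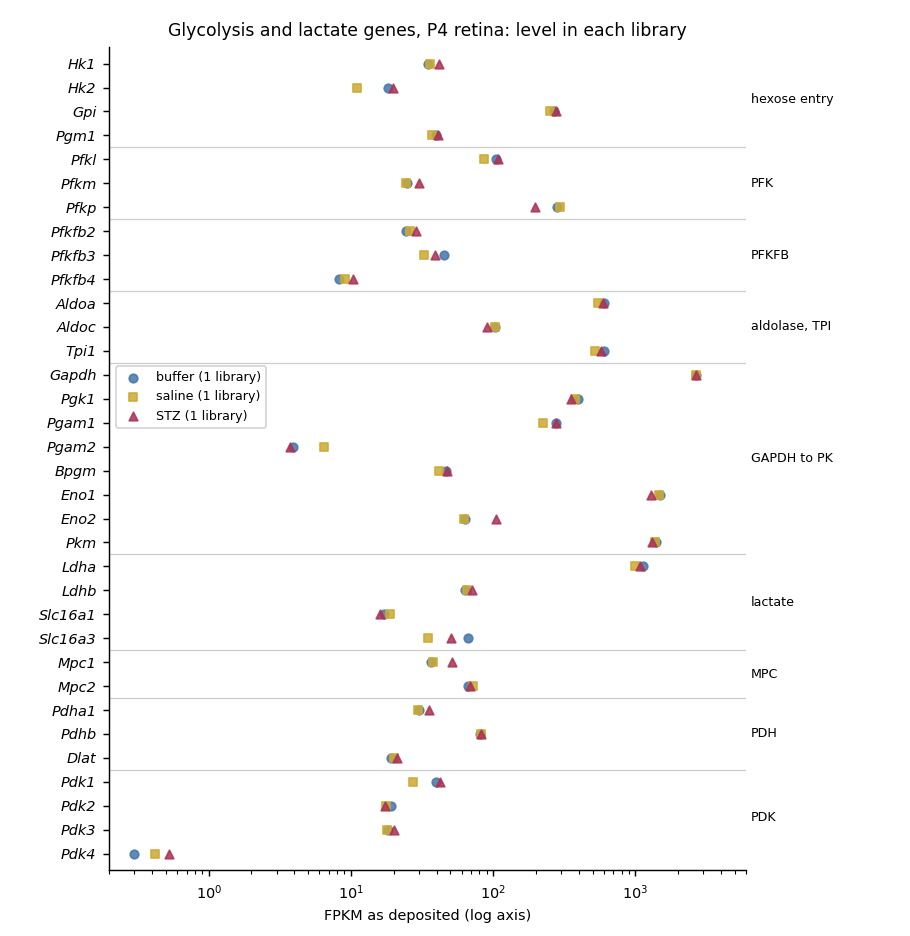
Level of each of the 34 genes in the 3 libraries, in FPKM on a log axis, grouped by step of the pathway (PFK, phosphofructokinase; PFKFB, its bifunctional regulators; TPI, triose phosphate isomerase; PK, pyruvate kinase; MPC, mitochondrial pyruvate carrier; PDH and PDK, pyruvate dehydrogenase and its kinases). Each point is 1 library. The points of most genes lie on each other, while the saline square lies to the left for Hk2, Slc16a3 and Pdk1 and the STZ triangle to the right for Eno2.

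Sequence upstream of the start is shown for the genes with at least 500 reads on average that passed a fold threshold in some comparison (Eno2, Hk2 and Slc16a3) and for Pdk1, which lay just inside it. RefSeq's promoter table for the rat assembly GRCr8 held 33 of the 34 members; Pgk1 was not matched. The 250 bases before the annotated start are printed 5′ to 3′ on the strand of the gene. Capitals mark ACGTG or GCGTG on either strand, the core that HIF-1 binds. ACGTG is also part of the motif CACGTG that Myc proteins bind, and none of the printed windows holds CACGTG. Eno2 lies at chr4:159267221-159267470 (minus strand), Hk2 at chr4:116841276-116841525 (minus strand), Slc16a3 at chr10:106712078-106712327 (plus strand) and Pdk1 at chr3:77113264-77113513 (plus strand).
Eno2: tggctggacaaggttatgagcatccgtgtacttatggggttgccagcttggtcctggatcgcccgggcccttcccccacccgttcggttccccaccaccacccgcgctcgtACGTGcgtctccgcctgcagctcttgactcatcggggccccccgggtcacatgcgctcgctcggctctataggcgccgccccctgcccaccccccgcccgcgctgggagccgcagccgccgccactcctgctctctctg
Hk2: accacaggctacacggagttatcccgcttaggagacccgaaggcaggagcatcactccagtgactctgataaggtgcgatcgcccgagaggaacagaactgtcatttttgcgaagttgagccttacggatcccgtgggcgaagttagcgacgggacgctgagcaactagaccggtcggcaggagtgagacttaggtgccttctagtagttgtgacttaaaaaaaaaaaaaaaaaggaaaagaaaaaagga
Slc16a3: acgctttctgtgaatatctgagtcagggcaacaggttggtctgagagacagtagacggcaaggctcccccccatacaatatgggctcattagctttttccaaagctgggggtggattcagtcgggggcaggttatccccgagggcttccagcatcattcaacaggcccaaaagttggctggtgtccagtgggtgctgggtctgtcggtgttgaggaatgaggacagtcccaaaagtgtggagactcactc
Pdk1: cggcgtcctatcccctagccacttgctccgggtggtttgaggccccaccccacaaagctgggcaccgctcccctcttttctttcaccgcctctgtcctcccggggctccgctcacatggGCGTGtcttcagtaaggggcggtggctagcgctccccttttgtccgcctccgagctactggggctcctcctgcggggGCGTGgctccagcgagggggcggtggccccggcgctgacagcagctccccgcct
Eno2 held 1 such core, 139 bases before the start, and Pdk1 held 2, at 131 and 54 bases. Hk2 and Slc16a3 held 0 in this window. Of the 37 windows of members, 23 (62.2%) held at least 1 core, against 36.7% of the 33469 windows of that length in the table. Those windows were not matched to the members for base composition or level of expression, and the part of either in this difference was not tested. A match is a description of letters and not a binding site.

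The comparison of STZ with its vehicle asks which genes differ 3 days after the injection. A gene's fold was the ratio of FPKM + 1 in both libraries. The lower threshold was 0.65 and the upper one its reciprocal rounded to 2 decimals (about 1.5). Of the 34 genes, 1 was above the upper threshold in STZ against buffer (Eno2) and 0 were below 0.65, which is 2.94% of the members. Of all genes, 3.29% passed a threshold in this comparison (2.25% above and 1.04% below), and of the 8196 genes with a mean of at least 500 reads 1.2% did. The members' share was thus near that of all genes. The folds of 28 members lay within 1.2-fold of equality. The share of all genes in that band is not given here, so this count does not set the members apart. The median log2 fold was 0.02, as it was over all genes (0.02). Depth was high enough to separate smaller differences from counting error. The ratio of read shares had a 95% interval above 1 for 12 members and below 1 for 9, together 61.8%. Over all genes 21.7% lay above and 15.5% below, together 37.2%, and 55.4% of those with at least 500 reads lay on either side.

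Eno2 encodes enolase 2 (gamma enolase), the form typical of neurons. It had 2760, 2702 and 4549 reads, or 63.2, 62 and 104 FPKM. The controls lay close together, with a ratio of read shares of 0.98 (95% counting interval 0.929 to 1.03), and the STZ library was higher than both. Against buffer its fold was 1.64, against saline 1.67, and the ratio of read shares was 1.65 (1.57 to 1.73) and 1.68 (1.6 to 1.76). Eno2 is 1 of 6 members whose estimated reads are not whole numbers, and the error of that estimate is not in the interval. Markers of neurons differed as well. All 10 ganglion and amacrine cell genes had folds above 1 against buffer, none of them past the upper threshold, and their FPKM added up to 400, 374 and 465. The 10 photoreceptor genes summed to 1842, 1763 and 2089 FPKM. Of these 7 had folds above 1 against buffer, up to 1.62 for Rcvrn, and 3 lay below, Otx2 with 0.874, Prdm1 with 0.859 and Neurod1 with 0.884. The part of these cells in the level of Eno2 was not tested.

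Eno1, the form found in nearly all cells, differed the other way. Eno1 had 48732, 48432 and 42698 reads, which gave a ratio of 0.875 (0.863 to 0.886) against buffer and 0.879 (0.868 to 0.891) against saline. The STZ library was below both controls, whose ratio was 0.995 (0.982 to 1.01). The fold of 0.874 was far from the threshold of 0.65. Gapdh, also of the lower pathway, lay at equality within counting error, while Pgk1 and Pkm were lower in STZ. Gapdh had a ratio of 1.01 (0.998 to 1.02), Pgk1, phosphoglycerate kinase, one of 0.892 (0.869 to 0.915) and Pkm one of 0.931 (0.921 to 0.942), all against buffer. With library totals as the scale, Gapdh differed by less than counting error in each of the 3 comparisons. With other scaling factors (TMM or DESeq2) its fold left the counting interval in each of them. In STZ against buffer it was then 0.9805 or 0.9822. Pgk1 and Pkm were lowest in STZ and highest in buffer.

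Phosphofructokinase commits glucose to glycolysis, and its platelet form Pfkp was the lowest member by fold in STZ against buffer. Pfkp had 15057, 15945 and 10669 reads. The STZ library was below both controls, which differed by a ratio of 1.06 (1.04 to 1.08). Its folds of 0.708 (buffer) and 0.668 (saline) did not reach 0.65, with ratios of 0.707 (0.69 to 0.725) and 0.667 (0.651 to 0.684). The summed FPKM of progenitor markers was lowest in STZ as well (959, 953 and 672), and their part in Pfkp was not tested. The muscle form Pfkm was higher, with 1369, 1346 and 1664 reads and a ratio of 1.21 (1.13 to 1.3) against buffer. Pfkm overlaps Senp1 in RefSeq's annotation of GRCr8, and Senp1 had 2073, 2230 and 2000 reads, more than Pfkm. The liver form Pfkl had 5823, 4750 and 5980 reads, so STZ and buffer lay together (ratio 1.03, 0.989 to 1.06) and saline lay below. The PFKFB enzymes make and break fructose 2,6-bisphosphate, the activator of phosphofructokinase. Pfkfb2 and Pfkfb4 were higher in STZ than in buffer, with ratios of 1.16 (1.1 to 1.21) and 1.25 (1.12 to 1.4), and Pfkfb3 was lower, with 0.877 (0.838 to 0.918).

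Of the 5 genes for the mitochondrial pyruvate carrier and pyruvate dehydrogenase, 3 had counting intervals above 1 in STZ against buffer and 2 included 1. Intervals above 1 were found for 21.7% of all genes and 29.2% of those with at least 500 reads. Mpc1, a subunit of the mitochondrial pyruvate carrier, had 532, 543 and 741 reads. The controls differed by less than counting error (ratio 1.02, 0.905 to 1.15), and STZ was above both. Its fold of 1.38 was the second highest among the members but did not reach the upper threshold, and the ratio of read shares was 1.39 (1.24 to 1.56). The partner subunit Mpc2 had 1055, 1115 and 1079 reads and a ratio of 1.02 (0.937 to 1.11). Pdha1, which encodes the E1 alpha subunit of pyruvate dehydrogenase, had 1719, 1676 and 2027 reads and a ratio of 1.18 (1.1 to 1.26). The subunits Pdhb and Dlat had ratios of 1.01 (0.956 to 1.07) and 1.1 (1.01 to 1.2). Of the 4 kinases that switch the complex off, Pdk3 had a ratio of 1.12 (1.01 to 1.23), while the intervals of Pdk1, Pdk2 and Pdk4 included 1. No member of these 3 groups passed a threshold against buffer.

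**Figure D2:**
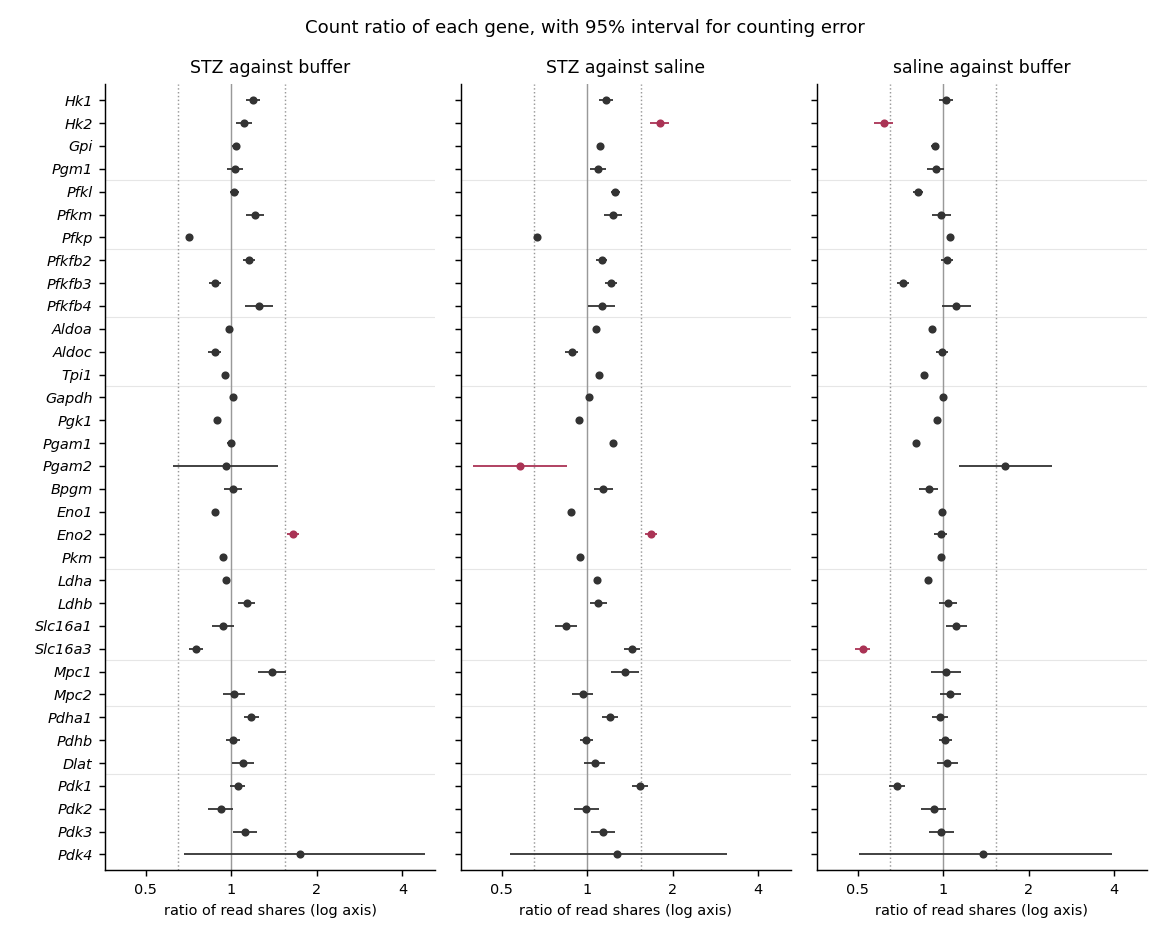
Ratio of read shares of each of the 34 genes in the 3 comparisons, on a log axis, with 95% Clopper-Pearson intervals for counting error. Dotted lines are the fold thresholds, and red points are genes whose FPKM fold passed a threshold, which for genes of low FPKM lies nearer to 1 than the read ratio. In STZ against buffer only Eno2 is red, and in saline against buffer Hk2 and Slc16a3 are.

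Saline against buffer asks how far the controls lie apart. Of the 34 genes 2 were below 0.65, Hk2 and Slc16a3, and 0 were above the upper threshold, which is 5.88% past either. Over all genes 0.429% were below and 1.0% above, together 1.43%. Among genes with at least 500 reads 0.293% were past either threshold. The 8 of 8196 such genes below 0.65 (0.0976%) include both members. The counting interval excluded 1 for 16 members (47.1%), against 23.1% of all genes and 35.8% of those with at least 500 reads. It lay below 1 for 13 members and above 1 for 3, while over all genes 9.81% lay below and 13.3% above. The median log2 fold of the members was -0.02, against 0.01 over all genes.

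Hk2 encodes the hexokinase bound to mitochondria in cells with high glycolytic flux. Hk2 had 1736, 1071 and 1928 reads. The saline library was lowest. STZ was above buffer by a smaller difference, with a ratio of 1.11 (1.04 to 1.18), beyond counting error. The fold of saline against buffer was 0.626, with a ratio of read shares of 0.617 (0.572 to 0.667). Hk1, the form expressed at a steady level in neurons, had 2327, 2382 and 2774 reads, with a ratio of 1.02 (0.967 to 1.09) between the controls and of 1.19 (1.13 to 1.26) in STZ against buffer. Pgm1, which links glycogen to the pathway, had 1792, 1685 and 1845 reads, with counting intervals that included 1 in both comparisons with buffer.

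Slc16a3 encodes MCT4, a transporter that exports lactate. The gene had 2978, 1550 and 2238 reads. Each library differed from the others by more than counting error, buffer being highest and saline lowest. The fold of saline against buffer was 0.529 and the ratio 0.521 (0.49 to 0.554), the lowest of all members. Against buffer STZ was at a fold of 0.763, inside the thresholds. Slc16a3 overlaps Csnk1d in RefSeq's annotation of GRCr8, and Csnk1d had 5371, 5447 and 5086 reads. Beside Pfkm and Slc16a3, the 5 other members with an overlapping gene (Pfkfb2, Aldoa, Tpi1, Mpc2 and Pdha1) had neighbours with at most 180 reads. How reads in the overlaps were assigned is not given in the sources used here. Slc16a1, which encodes the transporter MCT1, lay the other way, with 1021, 1134 and 958 reads and a ratio of 1.11 (1.02 to 1.21) in saline against buffer.

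Other members were also lowest in saline without reaching a threshold. Pdk1, a kinase induced by HIF-1, was counted 2207, 1514 and 2324 times, with a fold of 0.702 between saline and buffer. Pfkfb3, the member of its family with the strongest kinase activity, had 3954, 2861 and 3473 reads and a fold of 0.73. Pgam1, the main phosphoglycerate mutase, had 9539, 7678 and 9508 reads, at a fold of 0.807. In common these genes had only the low saline value, since Pfkfb3 was higher in buffer than in STZ, beyond counting error. Saline was the lowest of the 3 libraries with both counting intervals excluding 1 for 11 members, Hk2, Gpi, Pfkl, Pfkfb3, Aldoa, Tpi1, Pgam1, Bpgm, Ldha, Slc16a3 and Pdk1. That is 32.4% of the members, against 6.15% of all genes and 11.4% of those with at least 500 reads. The smaller differences in this set included Ldha, with 33809, 29875 and 32316 reads and a ratio of 0.884 (0.871 to 0.898), Aldoa, the main aldolase, with 15964, 14562 and 15651 reads and a ratio of 0.913 (0.892 to 0.934), and Gpi, glucose phosphate isomerase, with a ratio of 0.933 (0.907 to 0.959). Tpi1, triose phosphate isomerase, had 16117, 13840 and 15314 reads and a ratio of 0.859 (0.84 to 0.879). Buffer was the lowest library in this sense for 0 members, against 3.79% of all genes, and STZ for 5 (14.7%, against 12% of all genes and 21.2% of those with at least 500 reads), which were Pfkp, Aldoc, Pgk1, Eno1 and Pkm. STZ was the highest library in this sense for 11 members (32.4%, against 15.8% of all genes and 23.3% of those with at least 500 reads). Buffer was highest for 6 (17.6%, against 2.94% and 5.27%) and saline for 3 (8.82%, against 7.6% and 11.8%).

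The saline library also differed in markers of neighbouring tissue. Of the 10 pigment and ciliary epithelium genes 5 were above the upper threshold in saline against buffer, with Aldh1a1 at 1904, 6838 and 1904 reads and Pmel at 252, 940 and 240. The defining pigment epithelium gene Rpe65 was at or near 0, with 0, 2 and 2 reads. The part of such tissue in the values of Hk2 and Slc16a3 was not tested. Blood and muscle genes bear on 2 members that mark those cells. Bpgm, which makes 2,3-bisphosphoglycerate in red cells, had 1378, 1225 and 1398 reads and was lowest in saline, where the 11 blood genes had their highest summed FPKM (181, 256 and 132). Pgam2 had 48, 79 and 46 reads and was highest in saline, while the 12 muscle genes together had 362, 375 and 466 reads, most in STZ. Their summed FPKM was 6.07, 7.58 and 6.44, highest in saline, so reads and FPKM of the list gave different orders. Ryr1 held 247, 241 and 347 of these reads, and Ckm had 5, 6 and 3. Their part in the values of Bpgm and Pgam2 was not tested.

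**Figure D3:**
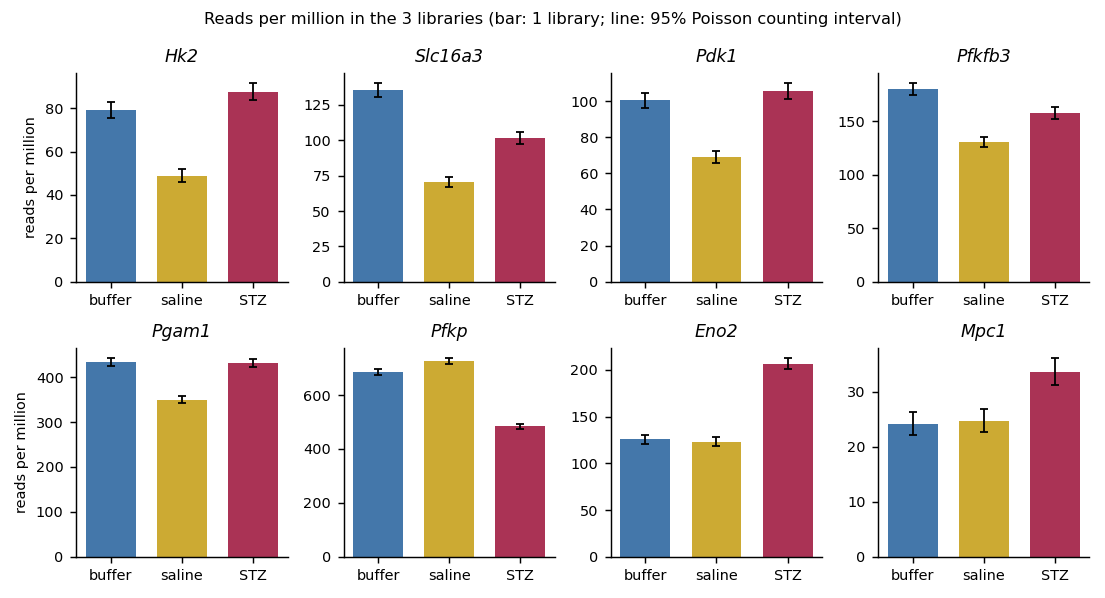
Reads of 8 members scaled to library size (CPM) in the buffer, saline and STZ libraries, with bars from 0 and lines for the 95% Poisson interval of 1 library. The upper row and Pgam1 have their lowest bar in saline, Pfkp has its lowest and Eno2 and Mpc1 their highest bar in STZ.

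STZ against saline rested on the same STZ library, so it is no independent repeat of the comparison with buffer. Of the 34 genes 2 were above the upper threshold, Hk2 with a fold of 1.73 and Eno2 with 1.67, and 1 was below 0.65, Pgam2 with 0.635. That is 8.82% of the members, and 3.78% of all genes passed a threshold here (2.04% above and 1.75% below), as did 1.7% of those with at least 500 reads. Counting intervals excluded 1 for 28 members (82.4%), against 41.6% of all genes and 62.5% of those with at least 500 reads. They lay above 1 for 21 and below 1 for 7, against 22.1% and 19.5% of all genes. Pgam2 had the widest interval of these, with a ratio of 0.581 (0.395 to 0.846). With CPM + 1 in place of FPKM + 1 its fold was 0.6721 and not below 0.65, although the read ratio without the added 1 was. Pdk1 lay just inside the threshold with a fold of 1.52, and Slc16a3 with 1.44. The members differed in which control set them apart. Against buffer Hk2 had a fold of 1.08 and Pdk1 of 1.07, and only Eno2 passed against both controls. The median log2 fold of the members was 0.13 against saline, and 0 over all genes. STZ lay farther from the mean of the controls than the controls lay from each other for 19 members (55.9%). The share was 59.1% of all genes and 67.2% of those with at least 500 reads.

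The make-up of each enzyme family was compared per length, as a share of the family's summed FPKM. In all 9 families of 2 or more members the same gene led in each library. Hk2 made up 34.3%, 23.6% and 32.3% of hexokinase FPKM. Slc16a3 made up 79.5%, 64.7% and 76.0% of both transporters. These families were set apart by saline. Enolase and phosphofructokinase were set apart by STZ. Eno2 made up 4.1%, 4.04% and 7.45% of enolase FPKM, and Pfkp 68.2%, 72.8% and 58.8% of phosphofructokinase. As shares of reads, with exact binomial intervals, Eno2 was at 5.36% (5.17 to 5.56), 5.28% (5.09 to 5.48) and 9.63% (9.36 to 9.9). Ldha, whose subunit favours the making of lactate, was at 94.7%, 93.8% and 93.8% of both dehydrogenase genes, and Aldoa at 85.3%, 84.2% and 86.7% of both aldolases. Ldhb, the subunit typical of tissues that use lactate, was higher in STZ than in buffer by a ratio of 1.13 (1.06 to 1.22). Aldoc, the aldolase of brain and retina, was lower by 0.873 (0.829 to 0.92). The summed FPKM of 6 astrocyte genes was lowest in STZ as well, and their part in Aldoc was not tested. Among the kinases Pdk1 led with 51.3%, 43.3% and 52.6%, and Pdk4 stayed under 1%.

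**Figure D4:**
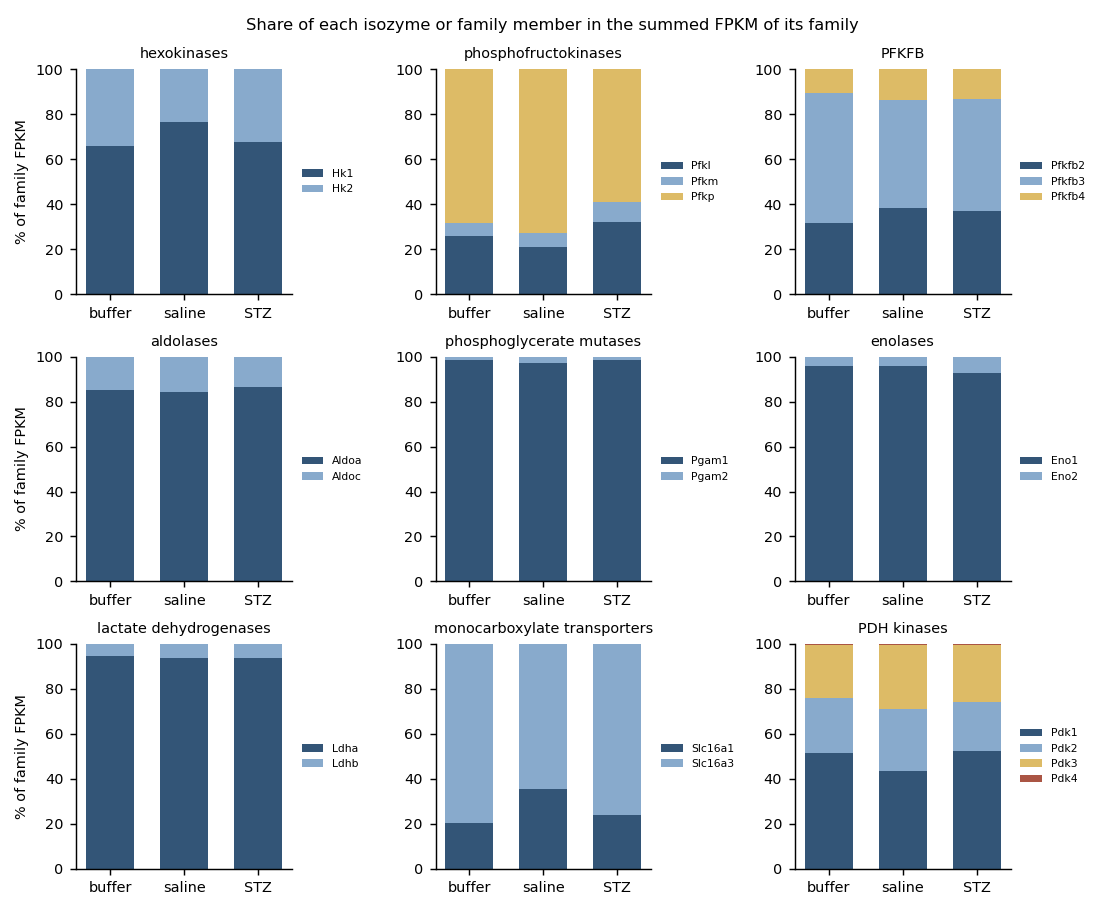
Share of each gene in the summed FPKM of its enzyme or transporter family, in percent, with 1 bar per library. Hk2 and Slc16a3 take a smaller part of their bars in saline (23.6% and 64.7%), and Eno2 takes a larger and Pfkp a smaller part in STZ (7.45% and 58.8%).

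Genes around the pathway were taken from lists of their own, and counted where they had a mean of at least 10 reads. Of all genes with so many reads, 2.58% were above the upper threshold in STZ against buffer and 1.15% below 0.65. Of 22 other glycolytic genes 1 was above the upper threshold there and 0 were below 0.65. The gene was Hk3, the hexokinase of myeloid cells, with 3, 3 and 71 reads and a ratio of 23.6 (7.76 to 117) against buffer. Microglia genes moved with it, 8 of 10 being above the upper threshold against buffer, and their part in Hk3 was not tested. Slc2a1, which encodes the glucose transporter GLUT1, had 10438, 9378 and 7196 reads and folds of 0.69 (buffer) and 0.766 (saline), inside the thresholds. STZ was the lowest library. Progenitor and endothelial markers were lower in STZ as well, and their part in Slc2a1 was not tested. Slc2a3, the neuronal transporter GLUT3, had 31, 60 and 92 reads and folds of 1.53 and 1.22. Its FPKM was at most 1.08, where the added 1 narrows the fold, and its ratios of read shares were 2.96 (1.95 to 4.61) and 1.53 (1.09 to 2.15). Tigar, a p53 target that lowers fructose 2,6-bisphosphate, had 607, 620 and 694 reads and folds of 1.13 and 1.1.

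In the 15 genes of other pyruvate routes and the 8 of the pentose phosphate pathway, none passed a threshold in any of the 3 comparisons. Of 15 regulators 1 was below 0.65 against both controls. It was Epas1, which encodes HIF-2 alpha, with 487, 494 and 256 reads and folds of 0.573 and 0.565. Against saline 1 was also above the upper threshold, Ppargc1a, a coactivator of mitochondrial genes. Of genes with at least 10 reads 2.37% were above it there. The endothelial markers were lower in STZ as well, all 8 with folds below 1 and 4 below 0.65 against buffer, and their part in Epas1 was not tested. Hif1a had 13348, 13773 and 14329 reads and a fold of 1.07 against buffer. Mycn, the Myc gene of retinal progenitors, had 2686, 2915 and 2024 reads and folds of 0.756 and 0.698, and Txnip, a glucose-responsive inhibitor of glucose uptake, had a fold of 1.1.

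HIF targets outside glycolysis were listed as well, 18 in number. Against buffer 2 were below 0.65 in STZ and 0 above the upper threshold. Of genes with at least 10 reads, 1.15% were below and 2.58% above. Folds were above 1 for 2 of the 18 against buffer and for 8 against saline. The median log2 fold against buffer was -0.149, and 0.0279 over genes with at least 10 reads. Ddit4, an inhibitor of mTOR that stress and hypoxia induce, had 5072, 4767 and 2975 reads and folds of 0.588 (buffer) and 0.624 (saline). The other, Egln3, an oxygen-sensing hydroxylase, had 322, 221 and 188 reads and folds of 0.646 (buffer) and 0.879 (saline). In saline against buffer 1 of the 18 was below 0.65, against 0.443% of genes with at least 10 reads. It was P4ha1, a collagen prolyl hydroxylase, with 3682, 2363 and 3202 reads and a fold of 0.647. Bnip3, a mitophagy receptor, had 4966, 3357 and 4863 reads and a fold of 0.679, while Vegfa, the vascular growth factor, had 8902, 8772 and 8346 reads and one of 0.993. Bnip3 and P4ha1 thus were lowest in saline, as Hk2 and Pdk1 were. P4ha1 was highest in buffer beyond counting error, with a ratio of 0.87 (0.83 to 0.91) in STZ against buffer. For Bnip3 that ratio was 0.98 (0.94 to 1.02), so buffer and STZ were not separated. Vegfa was lowest in STZ. Egln3, P4ha1, Bnip3, Ndrg1, Vegfa and Ppargc1a were named after their values were seen.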

How the data were processed

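Reads were trimmed by the authors, aligned with TopHat2 to the rat genome (rn6 by the submitters' processing notes), and left out where they had several locations. The annotation is not given in the sources used here. The authors deposited FPKM, TPM and an estimated count of reads per gene and library (estimated counts are fractional for 2858 genes).

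These counts were rounded. Folds were computed from FPKM with a pseudocount of 1, which understates changes of genes with low FPKM, and ratios from read shares with exact 95% intervals. The fold rule was run on all 18425 genes. Members and lists were chosen with earlier results of these data known. Results cover all 34 members. Another pathway gene is named where its mean reached 10 reads and it passed in STZ against each control, and Slc2a1, Slc2a3, Tigar, Hif1a, Mycn and Txnip are named in any case. All 34 members had a mean of at least 10 reads and 32 of at least 500. Of the identifiers 17120 matched RefSeq's table for GRCr8.

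As alternatives, the pseudocount was set to 0.1, the thresholds to 2 and 0.5, and the minimum to 10 reads. FPKM was rescaled by TMM factors (edgeR 4.0.16) or size factors (DESeq2 1.42.0, both in R 4.3.3), or replaced by CPM or TPM. The pseudocount of 1 was added to these values as well. In a further alternative the controls were averaged. Restricting to whole-number genes and the 500-read class were chosen after the data were seen. No count model was fitted, since there are no replicates. Python 3.11.15 with scipy 1.17.1 was used, and the calculations were tested on simulated data.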

Additional observations from a re-analysis of the deposited data

How the results depend on the processing

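With thresholds of 2 and 0.5, 0 members passed in each of the 3 comparisons. Counting intervals that exclude 1 gave 21 members for STZ against buffer, 28 for STZ against saline and 16 for saline against buffer. The count of 1 in STZ against buffer became 2 with a pseudocount of 0.1, which added Pdk4 at 8 reads in buffer, and 0 among members with whole-number reads, which leaves out Eno2. It stayed at 1 with TMM or DESeq2 factors, CPM, TPM and the mean of both controls. In STZ against saline the count of 3 became 2 with CPM (without Pgam2) and with whole-number reads (without Eno2), and 4 with a pseudocount of 0.1, which added Pdk1. In saline against buffer the count of 2 became 3 with a pseudocount of 0.1 or with TPM, which put Pgam2 above the upper threshold. The median log2 fold of the members in STZ against buffer was 0.02, and -0.02 with TMM or DESeq2 factors, so it has no stable sign. Of 510 single folds recomputed under other scalings, units and pseudocounts, 482 stayed within the counting interval of the gene and 28 left it. With the mean of both controls in place of buffer, 23 of 34 stayed and 11 left it. In neither set did a fold past a threshold turn in direction. By shares of reads, 8 of 9 families kept 1 leading gene, the exception being PFKFB. No paired analysis was possible because each condition has 1 library. For Pdk4 and Pgam2 depth limits any statement.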
